A study of Homo sapiens with 14 samples.

Results

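The H1 endoderm sort contained 78 control sgRNAs among the 9077 sgRNAs of its table. They were chosen by ID, as all sgRNAs whose ID starts neither with 2bc, the mark of an m6A-targeting sgRNA, nor with NT, the mark of a non-targeting sgRNA. Of these, 71 were named after 17 human genes, 3 after AAVS1 and 4 after the puromycin resistance gene. The cells were H1, a human embryonic stem cell line, infected as a pool with the lentivirus of FNLS-ABE7.10(AW), an adenine base editor carried with puromycin resistance. They were selected with puromycin, then infected with the pooled sgRNA library and selected with blasticidin. All groups shared these treatments and the endoderm induction with Activin A and CHIR99021. The CXCR4- and the CXCR4+ population, the cells with the least and the most CXCR4 on their surface, were sorted from each of 3 screens, which gave 6 libraries. The sort used CXCR4 alone, the infected cells were not a single clone, and the library of undifferentiated H1 cells was not analysed here. The same sgRNAs were also read in A549, a lung carcinoma line, with the cytosine base editor FNLS-BE3, in 7 libraries of days 0, 10, 20 and 30.

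A cytosine base editor turns C into T at its target and can so make a stop codon from codons for glutamine, arginine or tryptophan. An adenine base editor turns A into G and cannot make a stop codon from a codon for an amino acid. According to the methods, the gene-named sgRNAs were designed to stop oncogenes and tumor suppressors with FNLS-BE3, whereas the H1 cells carried the adenine editor. Definitive endoderm is the germ layer of gut, liver and pancreas, arises under Activin and Nodal signals, and bears the chemokine receptor CXCR4. The comparison therefore asked how sgRNAs with a target in the cell, but not designed for this editor, were spread over both populations, next to the 1000 non-targeting sgRNAs. Editing at their targets was not measured in the files used here. The sequences of the sgRNAs were not in the files used here either.

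The H1 libraries held 8076271 to 11341078 reads, deposited as normalized counts. The control sgRNAs took 0.961% to 1.01% of the normalized counts in the CXCR4- libraries and 0.986% to 1.01% in the CXCR4+ libraries. Their median normalized count was 1057 to 1174 in the CXCR4- libraries and 1046 to 1133 in the CXCR4+ libraries, against 1042 to 1083 for the non-targeting sgRNAs over all 6 libraries. The lowest value of a control sgRNA in any library was 162, for CDK8-4. All 78 passed the filter on low values, a mean of 200 in both populations, and the lowest mean among them was 322.

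For each screen the log2-fold change (LFC) sets the CXCR4+ against the CXCR4- normalized count, each plus a pseudocount of 1. A positive LFC thus means more of the sgRNA among CXCR4+ cells, and the middle value of the 3 screens is its median LFC. The control sgRNAs lay on both sides of 0 in equal numbers, 39 below and 39 above, where 50.5% of all sgRNAs lay below and 49.5% above. Their median LFCs had a median of 0.002 and an SD of 0.31 over sgRNAs, against −0.02 and 0.31 for the 997 non-targeting sgRNAs that passed the filter and −0.003 and 0.33 for all 9044 sgRNAs tested. Screen by screen, the median of the control sgRNAs minus that of the non-targeting sgRNAs was 0.04, 0.03 and 0.04, which is 0.04 ± 0.01 (SD, n = 3 screens). The offset is small beside the spread over sgRNAs. Taken between the median LFCs it was 0.02 with all screens, 0.146 without screen 2 and −0.00182 without screen 1. Of the 78, 74 lay within the middle 95% of the non-targeting sgRNAs, −0.65 to 0.58, none lay below and 4 lay above.

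Enrichment was called where the one-sided p from limma was under 0.05 and the median LFC beyond 0.58. These are the thresholds of the methods, where they were applied to p values from the MAGeCK test. The calls here are therefore not the calls of the study. In the CXCR4- population 1 of the 78 control sgRNAs was called (1.28%), where 1.74% of all sgRNAs tested and 2.21% of the non-targeting sgRNAs were. In the CXCR4+ population 1 was called as well (1.28%), where 2.05% of all and 1.30% of the non-targeting sgRNAs were. Both shares thus lay near or under the background of the screen. With two-sided p values from limma, 1 control sgRNA was under 0.05, against 3.76% of all sgRNAs. After Benjamini-Hochberg adjustment over all sgRNAs limma called 0 control sgRNAs and 0% of all sgRNAs, and the adjusted p of every control sgRNA named here rounded to 1. Beyond a median LFC of 1 in size there were 0 control sgRNAs, against 0.31% of all sgRNAs below −1 and 0.354% above 1.

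The sgRNA called in the CXCR4- population was CDK5-3, against the gene of a kinase best known in neurons, on chromosome 7 of GRCh37 from 150750902 to 150754984. Its normalized counts in screens 1, 2 and 3 were 530.3, 843 and 638 in the CXCR4- population and 386, 255 and 406 in the CXCR4+ population. All CXCR4- values lay above all CXCR4+ values. The LFCs were −0.46, −1.72 and −0.65, with a median of −0.65 ± 0.68 (SD, n = 3 screens), so that screen 2 gave the larger part. Its mean LFC from limma had a 95% interval of −1.77 to −0.12, the only interval of the 78 that did not hold 0, and its one-sided p from limma was 0.0133. Without screen 2 its median LFC was −0.55 and it was not called. The other CDK5 sgRNAs had median LFCs of −0.11 ± 0.52 for CDK5-4, −0.01 ± 0.29 for CDK5-2 and 0.30 ± 0.91 for CDK5-1 (SD, n = 3 screens).

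In the CXCR4+ population the sgRNA called was CDK2-1, against the gene of a kinase that drives entry into DNA replication, on chromosome 12 of GRCh37 from 56360565 to 56366573. Its normalized counts in screens 1, 2 and 3 were 331, 237 and 652 in the CXCR4- population and 511, 753 and 674 in the CXCR4+ population. The populations overlapped, since the CXCR4- value of screen 3 was above the CXCR4+ value of screen 1. The LFCs were 0.63, 1.67 and 0.05, with a median of 0.63 ± 0.82 (SD, n = 3 screens), a 95% interval of −0.08 to 1.64 for the mean from limma and a one-sided p from limma of 0.0362. Leaving out screen 1 or screen 2 ended the call, with median LFCs of 0.86 and 0.34. The other CDK2 sgRNAs lay at −0.39 ± 0.57 for CDK2-2, 0.01 ± 0.24 for CDK2-3 and 0.12 ± 0.05 for CDK2-4 (SD, n = 3 screens).

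Regardless of p, 1 control sgRNA had a median LFC below −0.58 (1.28%), against 3.57% of all sgRNAs, and 4 had one above 0.58 (5.13%), against 3.99%. Not called among them were 3, all toward the CXCR4+ population, of which 1 is of a gene not reported here. AAVS1_2 had the highest median LFC of the 78, with normalized counts of 291, 259.7 and 683 in the CXCR4- population and 568, 471 and 678 in the CXCR4+ population. Its LFCs were 0.96, 0.86 and −0.01, with a median of 0.86 ± 0.53 (SD, n = 3 screens). The third screen thus showed no difference between the populations, and the 95% interval of the mean from limma was −0.28 to 1.49. BRCA1-5 had 510.1, 493 and 978 in the CXCR4- population and 928, 789 and 660.3 in the CXCR4+ population, which gave LFCs of 0.86, 0.68 and −0.57 and a median of 0.68 ± 0.78 (SD, n = 3 screens). For AAVS1_2, BRCA1-5 and CDK2-1 alike, the CXCR4- library of screen 3 had the highest of the CXCR4- values. That library has a sample number apart from the other sorted libraries. Without it 5 of the 78 control sgRNAs were called in the CXCR4+ population, AAVS1_2, BRCA1-5, AKT1-4 and CDK2-1 among them. The share over all sgRNAs was then 4.46%. Leaving out all of screen 3 gave 5 as well, with the same named ones, at a share of 4.34%. Both runs share their LFCs, since a screen that lacks its CXCR4- library gives no LFC. They differ only in the filter and the limma fit, so the calls cannot be traced to that single library. Each of the named ones had its lowest LFC in screen 3, so leaving that screen out raises its median LFC by construction.

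Large LFCs went with low counts. The 5 control sgRNAs beyond 0.58 were all among the 13 with the lowest mean normalized counts, at 726 or less. The 39 control sgRNAs with the lower counts had a median size of the median LFC of 0.23, and the 39 with the higher counts 0.14. For the non-targeting sgRNAs the same split gave 0.25 and 0.17, with 48 sgRNAs beyond 0.58 at the lower counts and 17 at the higher. Spearman's rho between mean count and size of the median LFC was −0.17 over the 78 control sgRNAs and −0.22 over the non-targeting sgRNAs, which share the same 6 libraries. Read counts alone gave a median standard error of 0.06 to an LFC of a control sgRNA, next to a median SD over screens of 0.41 for the control and 0.38 for the non-targeting sgRNAs. For CDK5-3 in screen 2, with 262 reads in the CXCR4+ library, the counting error was 0.10 for an LFC of −1.72. These errors are lower limits, since they leave out everything but counting and take each read as its own molecule although PCR copies were not told apart.

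The low end of the control sgRNAs held genes of different roles. TGFB1-4, against the gene of the founding member of the TGF-beta family to which Activin and Nodal belong, had normalized counts of 1286, 871 and 1002 in the CXCR4- and 902, 942 and 598 in the CXCR4+ population. Its LFCs of −0.51, 0.11 and −0.74 gave a median of −0.51 ± 0.44 (SD, n = 3 screens). The populations overlapped through screen 2. BAP1-2, against a deubiquitinase that acts as a tumor suppressor, had 826, 1018 and 945 against 586, 653 and 1052, and a median LFC of −0.50 ± 0.42 (SD, n = 3). Here the third screen went the other way. The sgRNAs myb-1, against a transcription factor of blood progenitors, and CDK8-3, against the kinase of the Mediator complex, followed with −0.48 ± 0.35 and −0.45 ± 0.60 (SD, n = 3), and in both the LFC of screen 2 was positive, at 0.11 and 0.51. None of these 4 was called, and their one-sided p from limma for the CXCR4- population ranged from 0.0962 to 0.264.

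Among sgRNAs of growth signalling and transcription genes, 0 of 26 were called, where 1.74% and 2.05% of all sgRNAs were, so that a group of this size need not hold a call. The median LFCs ran from −0.51 to 0.55, with 15 below 0 and 11 above. For AKT1, a kinase of the insulin and PI3K pathway on chromosome 14, the 5 sgRNAs lay between −0.18 ± 0.50 for AKT1-3 and 0.54 ± 0.37 for AKT1-4 (SD, n = 3 screens). AKT1-4 had 665, 652 and 882 in the CXCR4- population and 966, 1131 and 925 in the CXCR4+ population, without overlap, and a one-sided p from limma of 0.0555. It was the only AKT1 sgRNA without overlap, while 3 of the 5 had median LFCs above 0 and 2 below. AKT1-1, with the highest mean count of all 78 control sgRNAs, had LFCs of −0.09, 0.05 and −0.13. BRAF, a kinase of the MAPK pathway, had 5 sgRNAs between −0.33 ± 0.22 for BRAF-3 and 0.13 ± 0.20 for BRAF-4 (SD, n = 3). EGFR, a growth factor receptor that signals through both pathways, had 3, between −0.04 ± 0.05 for EGFR-3 and 0.32 ± 0.14 for EGFR-1 (SD, n = 3), whose LFCs of 0.32, 0.38 and 0.11 were all positive. The populations overlapped for EGFR-1 in a single value, the 1449.7 of the CXCR4- library of screen 3 against 1445 in the CXCR4+ library of screen 1.

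The sgRNAs of MYC, a transcription factor of cell growth, lay between −0.19 ± 0.42 for myc-1 and 0.55 ± 0.65 for myc-4 (SD, n = 3 screens). For myc-4 the normalized counts were 1006, 1518 and 1099.6 in the CXCR4- population and 1476, 1089 and 1811 in the CXCR4+ population. Screens 1 and 3 gave LFCs of 0.55 and 0.72 and screen 2 gave −0.48, and without screen 2 it was called in the CXCR4+ population, with a median LFC of 0.64. MYB had 5 sgRNAs, up to 0.20 ± 0.44 for myb-2. The TGFB1 sgRNAs other than TGFB1-4 lay at −0.08 ± 0.22, −0.00 ± 0.29 and 0.24 ± 0.28 (SD, n = 3). Of these TGFB1-3 did not overlap, with 1857, 1892 and 2003 against 1758, 1797 and 1460.2, but its LFCs in screens 1 and 2 were only −0.08 and −0.07. Averaged over its sgRNAs, the LFC of TGFB1 was −0.01, −0.05 and −0.31 in the 3 screens.

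The cyclin-dependent kinases had 20 sgRNAs, 10 below and 10 above 0, and 1 was called in each population, where 1.74% and 2.05% of all sgRNAs were, and from a single call nothing is read about the group. CDK6, which with D-type cyclins starts the cell cycle, lay between −0.36 ± 0.11 for CDK6-4 and 0.35 ± 0.37 for CDK6-3 (SD, n = 3 screens). CDK6-4 was negative in each screen, at −0.49, −0.27 and −0.36, although its populations overlapped and its one-sided p from limma was 0.067. CDK6-1 was the least steady of the 78, with LFCs of −0.93, 1.02 and −0.05. CDK8 reached from CDK8-3 at −0.45 to CDK8-2 at 0.34 ± 0.61, and CDK9, a kinase that lets stalled RNA polymerase II go on, from −0.06 ± 0.55 for CDK9-4 to 0.22 ± 0.78 for CDK9-2 (SD, n = 3). CDK9-3 did not overlap, with 1028, 1065 and 1050.3 in the CXCR4- and 1100.0, 1258 and 1162 in the CXCR4+ population, and had a median LFC of 0.15 ± 0.07 (SD, n = 3). CDK8-4 and CDK8-1 had the lowest mean counts of all control sgRNAs, 350.4 and 400.4. Their LFCs ranged from −1.32 to 0.44 and from −0.19 to 1.22 over the screens.

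Tumor suppressor and repair genes had 15 sgRNAs, of which 0 were called, and at the background shares of 1.74% and 2.05% so small a group need not hold a call. For BAP1, 4 of 5 sgRNAs had median LFCs below 0, as for BRAF, and the median over sgRNAs was −0.34. Leaving out a screen turned the sign for BAP1-4 (−0.52 to 0.11) and BAP1-5 (−0.39 to 0.32). The fifth, BAP1-3, had 735, 656 and 697 in the CXCR4- and 811, 771 and 867 in the CXCR4+ population, without overlap, and a median LFC of 0.23 ± 0.09 (SD, n = 3 screens). Averaged over the 5 sgRNAs the LFC of BAP1 was −0.13, −0.02 and −0.18 in screens 1, 2 and 3, with a mean of −0.11 ± 0.08 (SD, n = 3 screens), next to −0.12 for TGFB1 and −0.21 for CDK5. BRCA1 and BRCA2 act in the repair of DNA breaks by homologous recombination, and their sgRNAs spread from −0.41 ± 0.04 for BRCA1-4 to BRCA1-5, and from −0.24 ± 0.61 for BRCA2-5 to 0.39 ± 0.36 for BRCA2-1 (SD, n = 3). BRCA1-4 was the steadiest of the 78 over the screens, at −0.41, −0.37 and −0.45. Its counts were 1348, 1153 and 812 in the CXCR4- and 1012, 891 and 596 in the CXCR4+ population. Within each screen they differed by less than the highest and the lowest count of 1 population did between screens. The two-sided p from limma, in a fit that does not pair the libraries of a screen, was 0.166. With the screen as a block in limma it was 0.128.

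AAVS1 is a safe-harbor locus within PPP1R12C, a gene on chromosome 19 of GRCh37 from 55602282 to 55629005, and serves as a control for a target whose change is tolerated. Beside AAVS1_2, AAVS1_1 had normalized counts of 1202, 1420.3 and 1124 in the CXCR4- and 1236, 1307 and 2358 in the CXCR4+ population. The LFCs of AAVS1_1 were 0.04, −0.12 and 1.07, so that screen 3 stood apart. AAVS1_3 had 1634, 1751 and 2376 against 1632, 2167 and 2021, and LFCs of −0.00, 0.31 and −0.23. Averaged over these 3 sgRNAs the LFC was 0.33, 0.35 and 0.27, which is 0.32 ± 0.04 (SD, n = 3 screens). By mean over sgRNAs this was the highest of the 16 targets, but the median over its sgRNAs was 0.04, below 0.14 for BRCA1 and puromycin resistance and 0.11 for AKT1 and CDK9. Different sgRNAs carried it in different screens, AAVS1_2 in screens 1 and 2 and AAVS1_1 in screen 3, and no AAVS1 sgRNA was called.

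The puromycin resistance gene was carried by the editor vector and not by the human genome, and its sgRNAs are named by an amino acid and its number. Trp(76) had 1632, 1256 and 1584 in the CXCR4- and 2206, 1617 and 1949 in the CXCR4+ population, and Gln(108) had 1388, 1645 and 1847 against 1915, 2449 and 1911. Gln(108) did not overlap, and Trp(76) overlapped in 1 library of each population. Their LFCs were 0.43, 0.36 and 0.30 for Trp(76) and 0.46, 0.57 and 0.05 for Gln(108), with medians of 0.36 ± 0.07 and 0.46 ± 0.28 (SD, n = 3 screens). The one-sided p from limma for the CXCR4+ population was 0.0494 for Trp(76) and 0.0451 for Gln(108). The two-sided p from limma was 0.0988 and 0.0902, and both sgRNAs stayed within the LFC threshold. The share of all sgRNAs under a one-sided p of 0.05 was not taken, so nothing is read from these p values. Gln(106) and Trp(123) lay at −0.09 ± 0.41 and −0.13 ± 0.70 (SD, n = 3). For Trp(123) the CXCR4- library of screen 1 stood apart, with 1758 against 653 and 805 in the others and 736 to 818 in the CXCR4+ libraries.

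Each of the 16 targets named here had sgRNAs on both sides of 0. Of all sgRNAs 50.5% lay below 0 and 49.5% above, so unrelated sgRNAs in groups of 3 to 5 would mostly be mixed too. For AAVS1 the side below 0 was held only by AAVS1_3 at −0.002, which was 0.009 with libraries rescaled to the same total. For CDK9 it was held only by CDK9-4 at −0.06. The range between the lowest and the highest sgRNA of a target was 0.28 for CDK9 to 1.09 for BRCA1. Without overlap between the populations were 2 control sgRNAs with higher CXCR4- values, CDK5-3 and TGFB1-3, against 4.48% of all sgRNAs, and 4 with higher CXCR4+ values, AKT1-4, BAP1-3, CDK9-3 and puro-Gln(108), against 4.4%. These are 2.56% and 5.13% of the 78. A positive LFC in each screen was seen for 12 control sgRNAs (15.4%), against 12.3% of all sgRNAs, and a negative one for 4 (5.13%), against 12.6%. The 4 were CDK5-3, BRCA1-4, CDK6-4 and TGFB1-3. Between the screens the LFCs of the 78 sgRNAs correlated at −0.06 for screens 1 and 2, 0.03 for screens 1 and 3 and −0.03 for screens 2 and 3 (Pearson's r over sgRNAs, which are not replicates and partly share a target). For the non-targeting sgRNAs the values were 0.07, −0.01 and −0.002.

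Screen 2 had the widest spread in both kinds of sgRNA. Over the control sgRNAs the SDs of the LFC were 0.45, 0.58 and 0.37 in the order of the screens, next to 0.45, 0.58 and 0.43 over the non-targeting sgRNAs. LFCs beyond 1 in size were reached by 2, 6 and 1 control sgRNAs in screens 1, 2 and 3, which is 2.56%, 7.69% and 1.28%, against 2.11%, 7.52% and 2.41% of the non-targeting sgRNAs. The precision for a single sgRNA can be read from the 95% intervals of its mean LFC from limma, which reached 0.36 to 1.15 to each side, with a median of 0.56. For 66 of the 78 the interval lay within −1 and 1, and for 16 within −0.58 and 0.58. For the other 62 the interval reached past the threshold of the screen on at least 1 side, and for the 60 of them without a call the missing call does not show equal levels in both populations.

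The same 78 sgRNAs were more widely spread in A549 cells with the cytosine editor for which the gene-named ones were designed. Over both day 30 libraries against the 1 day 0 library they share, the SD of the mean LFC over the control sgRNAs was 1.08, against 0.40 for the non-targeting sgRNAs, whereas in the H1 sort the SDs were 0.31 and 0.31. Most of this width came from the MYC sgRNAs myc-1, myc-2 and myc-3, and over the other 75 control sgRNAs the A549 SD was 0.54. A mean day 30 LFC below −1 was reached by 9 of the 78 control sgRNAs (11.5%) and by 9 of the 997 non-targeting sgRNAs (0.903%). The 9 control sgRNAs had H1 median LFCs between −0.34 and 0.23, with a median of −0.05, 6 below 0 and 3 above. Line, editor, time and readout all differ between the screens, so these values are set side by side and their difference was not tested.

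Among the sgRNAs named here the lowest A549 value was that of myc-3, which had 2317, 2238 and 1402 in the CXCR4- and 2389, 2246 and 1791 in the CXCR4+ population of H1. Its LFCs there were 0.04, 0.01 and 0.35, a median of 0.04 ± 0.19 (SD, n = 3 screens), next to −6.67 ± 1.71 (SD, n = 2 libraries) at day 30 of A549. The 95% interval of its mean LFC in H1 was −0.30 to 0.57. For myc-2 the H1 counts were 803, 1234 and 1049 against 820.2, 1198 and 807, and the median LFC was −0.04 ± 0.22 (SD, n = 3). For myc-1 they were 1638, 2475 and 1893 against 1889, 1605 and 1658, and the median LFC was −0.19. In H1 the values of each of these MYC sgRNAs overlapped between the populations. The day 30 LFCs in the A549 libraries were −7.88 and −5.46 for myc-3, −7.13 and −2.44 for myc-2, and −1.96 and −3.26 for myc-1. Their sizes were thus not steady between the libraries. Of the others below −1 in A549, the H1 median LFC was −0.06 for CDK9-4, with 824, 1311 and 1359 against 1384, 1258 and 1106, and it was 0.23 for BAP1-3, −0.05 for CDK6-1, 0.01 for CDK2-3 and −0.34 for BAP1-5. The remaining one is of a gene not reported here.

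Conversely, the sgRNAs called in H1 had mean day 30 LFCs not beyond 1 in A549, −0.55 ± 0.79 for CDK5-3 and −0.22 ± 0.07 for CDK2-1 (SD, n = 2 libraries). For CDK5-3 the libraries differed, at −1.10 and 0.01. Over the 78 control sgRNAs the day 30 LFC of A549 and the H1 median LFC had a Pearson's r of 0.20 and a Spearman's rho of 0.33, against 0.03 and 0.02 over the non-targeting sgRNAs. Without myc-1, myc-2 and myc-3 they were 0.33 and 0.32. By H1 screen, Spearman's rho of the control sgRNAs was 0.16, 0.09 and 0.23. These are descriptions over sgRNAs that came from 1 library and partly share a target.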

How the data were processed

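The data were sgRNA libraries of the H1 sort (6 libraries) and of the A549 screen (7 libraries), assigned to groups by their labels. The authors used Cutadapt and MAGeCK to get from reads to the normalized counts they deposited, here treated as a signal per sgRNA. The submitters' processing notes also name CASAVA 1.4, and no source used here gives the other versions. Each value was a whole multiple of a step particular to its library (100% of values within 0.05 reads), from which depth and counting error were taken. A549 libraries held 14925937 to 16457222 reads.

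The members and gene lists were chosen with earlier results of these data known. LFCs used a pseudocount of 1. limma 3.58.1 (R 4.3.3; lmFit, eBayes with a trend) was fitted over all sgRNAs with a mean of at least 200 in both populations, on the 6 sorted libraries, and p values were Benjamini-Hochberg adjusted over all 9044 sgRNAs. The script was tested on simulated data. Python 3.11.15, numpy 2.4.6, scipy 1.17.1 and pandas 2.3.3 served for the rest. Gene positions are those of GENCODE on GRCh37, the build given for the m6A sites of the library. No library was a duplicate of another of its population (chi-square of 34.9 to 82.7 per sgRNA).

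According to the methods each screen was run separately from infection to sorting, so the number pairs the libraries, and the block was an alternative because the methods name no pairing in the test. Once the population means were taken off, the libraries of screens 1, 2 and 3 correlated within the screen at 0.0823, 0.0648 and 0.287 over sgRNAs, and libraries of different screens at −0.178 to 0.108, so that in screens 1 and 2 the pairing does not show in the values. Named with values were called sgRNAs, the 5 highest and 5 lowest, those of AAVS1, puromycin resistance and MYC, CDK9-4, and the lowest and highest of each gene; the non-overlapping ones and those with the same sign in each screen, the steadiest and the least steady, those of lowest and highest counts, and those below −1 in A549 were added after their values were seen. Results of 10 sgRNAs of 3 genes are included in totals and not reported by name. Alternatives were other pseudocounts, no filter, other scalings, limma without the trend, the replicate block, a threshold of 1 and leaving out libraries.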

Additional observations from a re-analysis of the deposited data

How the results depend on the processing

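CDK5-3 and CDK2-1 were the control sgRNAs called with pseudocounts of 10 and 0.5, without the filter, with either rescaling, in limma without the variance trend and with the replicate block, in which 1 was called in each population as before and 0 after adjustment. At a threshold of 1 on the median LFC 0 were called in the CXCR4- and 0 in the CXCR4+ population. Leaving out a screen or the CXCR4- library of screen 3 gave 1 to 2 calls among the 78 in the CXCR4- population and 0 to 5 in the CXCR4+ population. The 2 CXCR4- calls came without screen 2, where the share over all sgRNAs was 2.3%. In the other runs 1 was called there, at shares of 2.68% to 3.71%. The 5 CXCR4+ calls came without screen 3 and without its CXCR4- library, at shares of 4.34% and 4.46%, and the LFCs of both runs are the same. With 2 screens left, median and mean LFC are the same and 1 extreme screen can carry a call. Without screen 2 those called were TGFB1-4 (−0.63), puro-Trp(123) (−0.62) and myc-4 (0.64), each not called with all screens. An adjusted p under 0.05 was reached by 0 control sgRNAs in every alternative run. The median LFC of the control sgRNAs was 0.0359 when libraries were rescaled to the same non-targeting median and −0.0115 to 0.117 with libraries left out, and its difference to the non-targeting median was then −0.00182 to 0.146, the highest without screen 2. The A549 SD without the lowest MYC sgRNAs was added after the data were seen. The test on whole reads was not run, because the values were treated as normalized values.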
